A study of Rattus norvegicus with 20 samples.

Results

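Rab proteins are small GTPases that sit on the membranes of vesicles and organelles and decide where a vesicle goes and with what it fuses. The genes described here were all genes of the rat array whose symbol is Rab followed by a digit, taken from probe sets annotated to a single gene, with the brightest probe set (by mean log2 signal over all arrays) standing for the gene. The rule gave 66 genes, represented by 110 probe sets, out of 14217 genes named by 1 symbol. Of these 66, 56 encode Rab GTPases. The other 10 carry the symbol but encode partners: the Rab11 family interacting proteins Rab11fip1 to Rab11fip5, the Rab3 GTPase activating subunits Rab3gap1 and Rab3gap2, the exchange factors Rab3ip and Rab3il1, and Rab5if.

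The arrays came from male rats of the Sprague Dawley strain, with a body weight of 250 to 300 g at 20 weeks. The isoflurane group (10 arrays) breathed the volatile anaesthetic isoflurane at 2%, or 1.4 MAC (the minimum alveolar concentration, a measure of anaesthetic potency), in oxygen for 15 min, and the oxygen group (10 arrays) breathed oxygen alone for the same time. Brains were taken after a recovery of 6 h, and the titles call each array a biological replicate. Each array is labelled brain cortex, and total RNA of the whole dissected piece was hybridised, so that fewer cells of a type and less RNA per cell cannot be told apart.

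The label and the markers disagreed for many of the arrays. Pcp2, a gene of cerebellar Purkinje cells, had a log2 signal of 13.60 to 14.17 on 11 arrays (isoflurane replicates 1, 3, 7, 8 and 9 and oxygen replicates 5 to 10) and of 4.46 to 10.67 on the other 9 (isoflurane replicates 2, 4, 5, 6 and 10 and oxygen replicates 1 to 4). These are called Pcp2-high and Pcp2-low arrays, split at a log2 Pcp2 signal of 12. All 8 cerebellum markers were higher on each Pcp2-high array than on any Pcp2-low array. Pcp2 is 1 of the 8, and its separation was fixed by the split. The summed linear signal of the 8 was 60906 to 83036 on Pcp2-high arrays and 2676 to 10844 on Pcp2-low arrays. The Pcp2 probe set of the split had a linear signal of 12436 to 18438 and of 22 to 1632 on these sets. Of the 5 cortex markers measured, 3 were lower on each Pcp2-high array than on any Pcp2-low array, and their summed signal was 1060 to 1646 on Pcp2-high arrays and 2535 to 3787 on Pcp2-low arrays. A further group of arrays, isoflurane replicates 2, 4, 5 and 6, differed from the remaining 16: the mean log2 3'/5' ratio of their Gapdh and Actb control probe sets, which is higher where signal near the 5' end of a transcript is lost, was 1.28 to 1.59, against 0.63 to 1.23. The difference came from Actb (2.30 to 2.86, against 1.09 to 1.98), while the Gapdh ratio of the 4 arrays (0.24 to 0.33) lay within the range of the other 16 (0.12 to 0.48). Their summed choroid plexus signal was 489 to 675, against 1020 on isoflurane replicate 10 and 839 to 13323 on the oxygen Pcp2-low arrays. The single markers were mixed. Of the 5 measured, 1 was lower and 1 higher on each of the 4 arrays than on any other Pcp2-low array.

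As background, a Rab cycles between a GDP-bound form held in the cytosol by a dissociation inhibitor and a GTP-bound form on a membrane. Exchange factors load GTP, activating proteins trigger its hydrolysis, and effectors that recognise the GTP-bound form tether, move or fuse the vesicle. In neurons the pathway serves the release of synaptic vesicles, in which Rab3a takes part, the sorting and recycling of receptors through endosomes, and axonal and dendritic transport.

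Upstream sequences are shown for 4 members that the results below turn on: the paralogues Rab27a and Rab27b, which lay on opposite sides between the Pcp2-high and Pcp2-low arrays, and Rab15 and Rab3a, whose brightest probe sets were lower after isoflurane on the Pcp2-low arrays. Each is the 250 bases before the transcription start in RefSeq's annotation of the build GRCr8, 5' to 3' on the gene's own strand. The positions are chr8:82663123-82663372 (plus strand) for Rab27a, chr18:65938584-65938833 (minus strand) for Rab27b, chr6:101257084-101257333 (minus strand) for Rab15 and chr16:18722274-18722523 (minus strand) for Rab3a. Capitals mark the GC box, GGGCGG on either strand (written CCGCCC where it lies on the other strand), the letters that transcription factors of the Sp family recognise.
Rab27a: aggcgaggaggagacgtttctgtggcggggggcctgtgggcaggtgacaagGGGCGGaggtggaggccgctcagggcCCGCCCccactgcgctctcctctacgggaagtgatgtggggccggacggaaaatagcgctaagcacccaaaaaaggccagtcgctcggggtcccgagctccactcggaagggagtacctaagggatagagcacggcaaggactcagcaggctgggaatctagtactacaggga
Rab27b: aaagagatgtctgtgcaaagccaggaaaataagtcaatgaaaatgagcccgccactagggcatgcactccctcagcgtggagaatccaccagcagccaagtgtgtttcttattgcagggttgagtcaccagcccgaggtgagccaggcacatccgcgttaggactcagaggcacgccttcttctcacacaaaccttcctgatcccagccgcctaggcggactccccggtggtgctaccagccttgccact
Rab15: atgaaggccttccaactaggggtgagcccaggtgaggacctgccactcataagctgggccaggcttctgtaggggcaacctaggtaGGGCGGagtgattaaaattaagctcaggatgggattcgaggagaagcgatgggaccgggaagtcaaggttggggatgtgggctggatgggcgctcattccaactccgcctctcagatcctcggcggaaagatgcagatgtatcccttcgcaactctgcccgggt
Rab3a: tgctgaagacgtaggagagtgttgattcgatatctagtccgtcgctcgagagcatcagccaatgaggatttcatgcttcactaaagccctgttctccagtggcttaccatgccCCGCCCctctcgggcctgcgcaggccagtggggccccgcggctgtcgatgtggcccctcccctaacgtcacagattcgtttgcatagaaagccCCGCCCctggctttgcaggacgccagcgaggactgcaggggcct
The window held 2 GC boxes upstream of Rab27a, 0 upstream of Rab27b, 1 upstream of Rab15 and 2 upstream of Rab3a. Of the 66 genes, 52 had an entry in the table of promoters, and 41 of these (78.8%) held a GC box in the window, compared with 30.5% of all 33469 promoters of the same length. The TATA box letters TATAAA, on either strand, were in 1 of the 52 (1.92%), compared with 12.9% of all promoters, and the palindrome TGACGTCA of the cAMP response element was in 2 (3.85%), compared with 1.59%. None of the 4 windows printed holds TATAAA or TGACGTCA. The 33469 promoters were not limited to the genes of the array, so the Rab genes were not set against a matched group. The annotated gene start fitted the window for 19339 of the 33469. The motif counts describe these windows only.

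The fits took 57 of the 66 genes, 49 of them GTPases, whose log2 signal averaged over the arrays exceeded 6.62, the 40th percentile of all probe sets. The 9 below it were Rab17, Rab19, Rab25, Rab32, Rab38, Rab39a, Rab43, Rab11fip2 and Rab3il1. Rab20 lay just inside, with a mean of 6.68, and Rab32 just outside, with 6.50. Since a gene could pass through a group where it is high, the counts below cover the 57 genes only. Signals of different probe sets were not set against each other, because each probe set has its own affinity.

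The Pcp2-high and Pcp2-low arrays were apart for a minority of the Rab genes. The ranges of the Pcp2-high and Pcp2-low arrays did not overlap for 11 of the 57 genes (19.3%), 3 higher and 8 lower on Pcp2-high arrays. Among all 10315 genes tested the share was 20.6%, with 10.3% higher and 10.3% lower, so the count lay near the background. The median difference, Pcp2-high minus Pcp2-low, was -0.03 on the log2 scale for the Rab genes and 0.07 for all genes, and the median size of the difference regardless of sign was 0.28 for the Rab genes and 0.34 for all genes. No p-value is given for this split, since it was drawn from the same arrays.

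**Figure D1:**
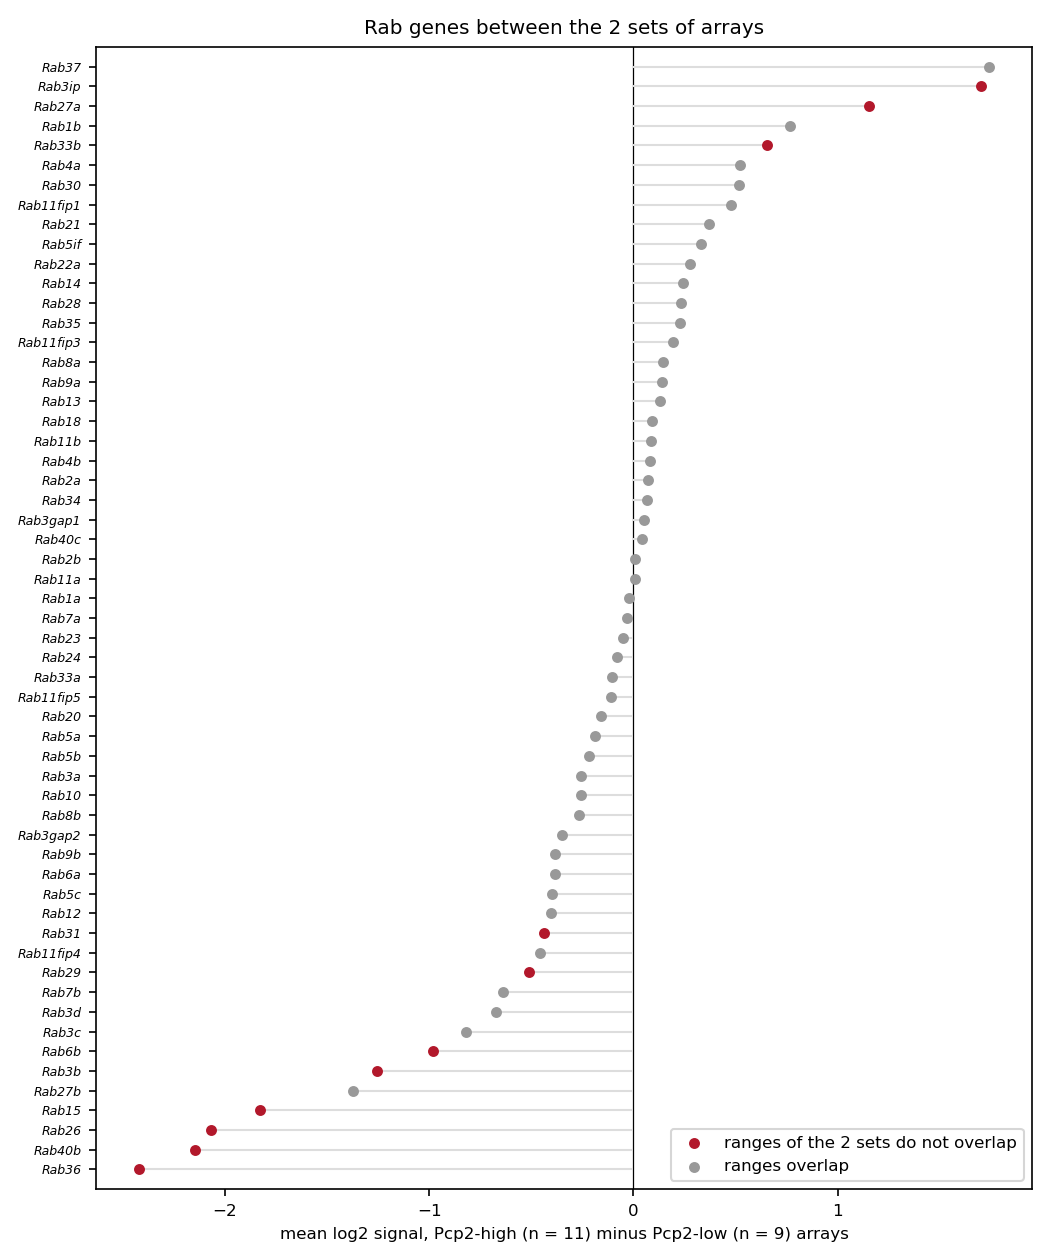
Difference in mean log2 signal between the 11 Pcp2-high and the 9 Pcp2-low arrays for each of the 57 Rab genes, 1 point a gene, sorted by the difference. Red points mark the 11 genes whose ranges on the 2 sets of arrays do not overlap, from Rab36 at -2.42 to Rab3ip at 1.70; Rab37 at 1.74 and Rab27b at -1.37 lie far out but overlap.

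The Rabs of regulated secretion differed in both directions. Of the 8 exocytic Rabs, all above the signal threshold by their mean over all arrays, 5 differed by more than 1 on the log2 scale between the sets, compared with 9 of all 57 Rab genes (15.8%) and 12.8% of all genes. Of these 8, 2 averaged under the signal threshold on one set (Rab37 on Pcp2-low and Rab3c on Pcp2-high arrays). Among genes above it on both sets, 4 of 6 exocytic Rabs differed by more than 1, as did 7 of 53 Rab genes (13.2%) and 10.9% of all genes. Without isoflurane replicates 2, 4, 5 and 6 the count among the 8 was 4, since Rab27b no longer differed by more than 1. The share was then 14% of the Rab genes and 13.2% of all genes. Rab27a, which recruits secretory granules and lysosome-related organelles to the plasma membrane, had log2 signals of 8.23 to 8.65 (median 8.41) on Pcp2-high arrays and 6.97 to 7.55 (median 7.25) on Pcp2-low arrays, a difference of 1.15. Its second tested probe set differed by 2.04, also without overlap.

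Rab27b, the paralogue that serves dense-core and synaptic vesicle release, lay the other way. Its mean log2 signal was 6.69 ± 0.26 (SD, n = 11) on Pcp2-high arrays and 8.07 ± 1.16 (SD, n = 9) on Pcp2-low arrays, a difference of -1.37. The ranges overlapped, and without isoflurane replicates 2, 4, 5 and 6 the difference was -0.42. The second tested probe set of Rab27b differed by -0.96, also with overlap, and by -0.79 without these 4 arrays.

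Rab26, a Rab of secretory granules and synaptic vesicle clusters, had log2 signals of 7.51 to 8.74 (median 8.08) on Pcp2-high arrays and 9.89 to 10.54 (median 10.23) on Pcp2-low arrays. The difference was -2.07, with every Pcp2-high array below every Pcp2-low array. Rab3b, an isoform of the synaptic vesicle Rab, had 8.11 to 8.65 (median 8.46) on Pcp2-high arrays and 9.22 to 9.98 (median 9.68) on Pcp2-low arrays, a difference of -1.25. Among the other isoforms, Rab3a differed by -0.26, Rab3c by -0.82 and Rab3d by -0.67, all 3 with overlapping ranges. The second probe set of Rab3a differed by 0.23, in the other direction. With isoflurane replicates 2, 4, 5 and 6 left out, the ranges of Rab3a did not overlap either, and its difference was -0.49. Rab37, a Rab of secretory granules chosen after its values were seen, differed by 1.74, with 7.62 to 8.21 on Pcp2-high arrays and a wide 4.95 to 7.77 on Pcp2-low arrays.

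**Figure D2:**
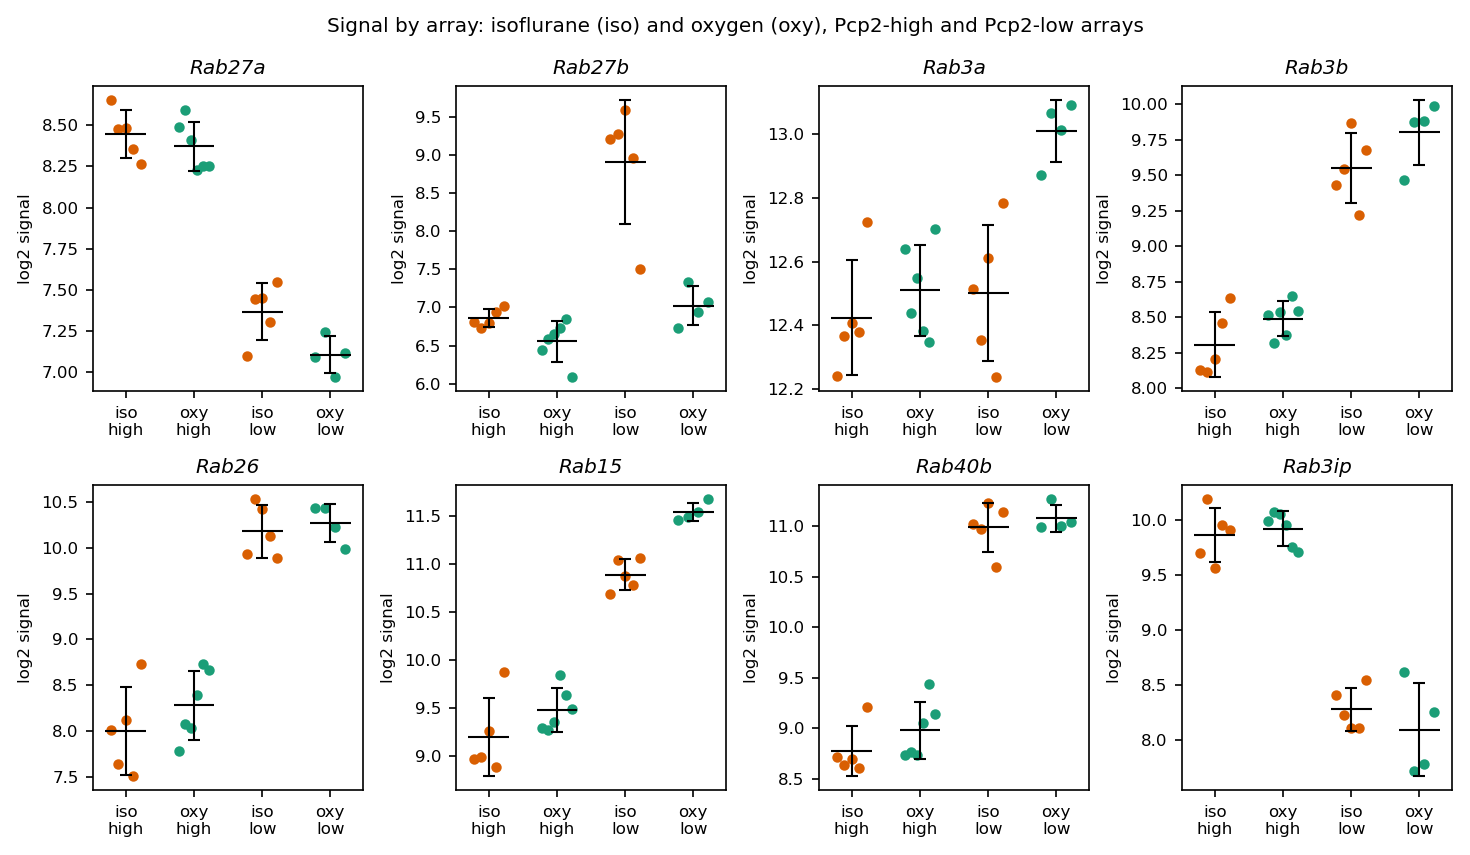
Log2 signal on each array for 8 Rab genes that describe the 2 sets, in 4 columns: isoflurane Pcp2-high (n = 5), oxygen Pcp2-high (n = 6), isoflurane Pcp2-low (n = 5) and oxygen Pcp2-low (n = 4). Points are arrays, orange for isoflurane and green for oxygen, and bars give the mean and SD; Rab27a and Rab3ip sit higher on Pcp2-high arrays and Rab3b, Rab26, Rab15 and Rab40b lower, in both groups, and each panel has its own axis.

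The other members with separate ranges belonged to the Golgi, endosome and ubiquitin ligase Rabs. Rab36, a Golgi Rab, had 5.29 to 7.23 (median 6.45) on Pcp2-high arrays and 8.09 to 9.14 (median 8.81) on Pcp2-low arrays. The difference was -2.42. Rab36 averaged 6.34 on Pcp2-high arrays, under the signal threshold of 6.62, so it entered the fits through the Pcp2-low arrays and the size of its difference is uncertain. Rab40b, whose protein carries a SOCS box and joins a cullin ubiquitin ligase, had 8.61 to 9.44 (median 8.74) on Pcp2-high arrays and 10.60 to 11.27 (median 11.02) on Pcp2-low arrays, a difference of -2.14. Rab15, a Rab of early and recycling endosomes in neurons, had 8.88 to 9.87 (median 9.29) on Pcp2-high arrays and 10.68 to 11.67 (median 11.06) on Pcp2-low arrays, a difference of -1.83. For Rab15 and Rab40b each further tested probe set separated the sets in the same direction: the others of Rab15 differed by -1.51 and -1.32, and that of Rab40b by -1.70.

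Rab6b, the neuronal form of a Rab of Golgi transport, differed by -0.98 and its second probe set by -0.56, both without overlap. The widely expressed form Rab6a differed by -0.38 with overlapping ranges. The second probe set of Rab6a differed by 0.86, in the other direction and also with overlap. Rab29, a Rab of the trans-Golgi and lysosomes that recruits the kinase Lrrk2, differed by -0.51. Rab31, a Rab of the early endosome and trans-Golgi, differed by -0.44, but its second probe set differed by 0.04 with overlap. Higher on Pcp2-high arrays were Rab3ip, an exchange factor for Rab8, with 9.56 to 10.19 (median 9.95) against 7.72 to 8.61 (median 8.23) on Pcp2-low arrays, a difference of 1.70, and Rab33b, a Golgi Rab with a part in autophagy, with a difference of 0.65. Among paralogues of named members, Rab1a, which serves early secretory transport, differed by -0.02, and Rab7a, the Rab of late endosomes, by -0.03.

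For the 11 genes with separate ranges, the same sign in both groups follows from how they were selected, so only the sizes are described. Taken within isoflurane arrays and within oxygen arrays, Rab36 differed by -2.69 and -2.22, Rab40b by -2.22 and -2.10, Rab26 by -2.18 and -1.99, Rab15 by -1.69 and -2.06, Rab3ip by 1.59 and 1.83, and Rab27a by 1.08 and 1.26. Among members with overlapping ranges, Rab27b differed by -2.05 within isoflurane arrays and -0.46 within oxygen arrays. Its second probe set differed by -0.99 and -0.84. Rab37 differed by 1.30 and 2.29, Rab3c by -1.20 and -0.40, and Rab3a by -0.08 and -0.50. Leaving out the 4 isoflurane arrays that stood apart, 16 of the 57 genes had separate ranges, 5 higher and 11 lower, as had 26.5% of all genes. Under quantile normalization the count was 13, with 5 higher and 8 lower, and the share of all genes was 20.3%. The markers of cerebellum moved with the split, and the striatum markers, summed over the 5 measured, were 2720 to 4443 on Pcp2-high arrays and 5461 to 11772 on Pcp2-low arrays. Their part in the Rab differences was not tested.

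Isoflurane was compared with oxygen over all 20 arrays, with the Pcp2 split as a block (limma, Benjamini-Hochberg adjustment over 18625 probe sets, two-sided, threshold 0.05). A small part of the family changed: 4 of the 57 genes passed (7.02%), 1 higher and 3 lower after isoflurane. Among all genes tested 7.73% passed, 1.86% higher and 5.87% lower, so the count among the Rab genes lay near the background. The median log2 change was -0.07 for the Rab genes and -0.02 for all genes, and 34 of the 57 changes were negative (35 under quantile normalization and 44 with arrays centred on their medians). Among all 10315 genes tested 5635 changes were negative, and 7247 with arrays centred on their medians. Under quantile normalization 5876 of 10304 were negative. The count rested on few arrays. It was 0 without isoflurane replicates 2, 4, 5 and 6 (8 genes at an unadjusted p under 0.05), where 0% of all genes passed, and 0 with no block (12 at an unadjusted p under 0.05), where 0.524% of all genes passed. Of all 10315 genes, 1757 and 1524 had an unadjusted p under 0.05 in these fits. The count of Rab genes was 10 without isoflurane replicate 9, 7 without isoflurane replicate 10 and 1 without oxygen replicate 4, where 15.9%, 10.3% and 2.92% of all genes passed.

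Rab11fip4, which links Rab11 to motors and to recycling endosomes, was the member with the lowest p. Its log2 signals after isoflurane were 10.22, 9.79, 9.82, 10.12 and 10.48 on Pcp2-high arrays, where the 6 oxygen arrays ranged from 10.33 to 10.77 (median 10.59). On Pcp2-low arrays they were 10.45, 10.40, 10.51, 10.66 and 10.69 after isoflurane, and 11.03, 10.95, 11.11 and 11.43 after oxygen. Of the Pcp2-high isoflurane arrays, 4 of 5 lay below every oxygen array there, and on Pcp2-low arrays the groups did not overlap. Rab11fip4 fell by 0.52 on the log2 scale (SE 0.0928, adjusted p = 0.00796 in limma's fit). The change was -0.48 within Pcp2-high arrays and -0.58 within Pcp2-low arrays. Rab11fip4 passed with each single array left out, and without the 4 arrays that stood apart its change was -0.47 (adjusted p = 0.137).

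Rab5b, an isoform of the Rab that drives fusion of early endosomes, fell by 0.43 (SE 0.106, adjusted p = 0.0234). Its log2 signals after isoflurane were 10.77, 10.52, 10.73, 10.56 and 11.28 on Pcp2-high arrays, where the oxygen arrays had 11.15, 10.79, 11.13, 10.86, 10.79 and 11.28. On Pcp2-low arrays they were 10.84, 10.78, 10.77, 10.65 and 11.04 after isoflurane, and 11.32, 11.37, 11.51 and 11.75 after oxygen. The groups overlapped through isoflurane replicate 9 on Pcp2-high arrays and were apart on Pcp2-low arrays. All 3 tested probe sets of Rab5b had negative changes, -0.43, -0.62 and -0.71. The isoforms Rab5a and Rab5c changed by 0.12 and 0.23 and did not pass.

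Rab15 fell by 0.45 (SE 0.115, adjusted p = 0.0262). Its log2 signals after isoflurane were 8.97, 8.99, 9.26, 8.88 and 9.87 on Pcp2-high arrays, where the oxygen arrays ranged from 9.27 to 9.85 (median 9.42). On Pcp2-low arrays they were 10.68, 11.03, 10.88, 10.78 and 11.06 after isoflurane, and 11.46, 11.48, 11.54 and 11.67 after oxygen. Isoflurane replicate 9 was the highest of all Pcp2-high arrays for Rab15, and here too the Pcp2-low groups were apart. The other tested probe sets of Rab15 did not show the change (0.09 and -0.01 over all arrays, 0.23 and 0.17 within Pcp2-low arrays), so the fall was measured by its brightest probe set alone. Rab5b and Rab15 no longer passed without oxygen replicate 4 (adjusted p = 0.0552 and 0.0621).

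Rab27b rose by 1.01 (SE 0.257, adjusted p = 0.0258), the only member to pass upwards in this fit. Its log2 signals after isoflurane were 6.81, 6.73, 6.80, 6.93 and 7.02 on Pcp2-high arrays, where the oxygen arrays ranged from 6.09 to 6.85 (median 6.62). On Pcp2-low arrays they were 9.21, 9.27, 9.58, 8.95 and 7.50 after isoflurane, and 6.73, 7.34, 6.95 and 7.07 after oxygen. The high values are isoflurane replicates 2, 4, 5 and 6. Without these 4 arrays the change was 0.34 (adjusted p = 0.265), and Rab27b also lost its call without oxygen replicate 3 or oxygen replicate 4 (change 0.93 or 0.95). The second probe set of Rab27b changed by 0.46 (adjusted p = 0.226), and the paralogue Rab27a by 0.16 (adjusted p = 0.238).

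**Figure D3:**
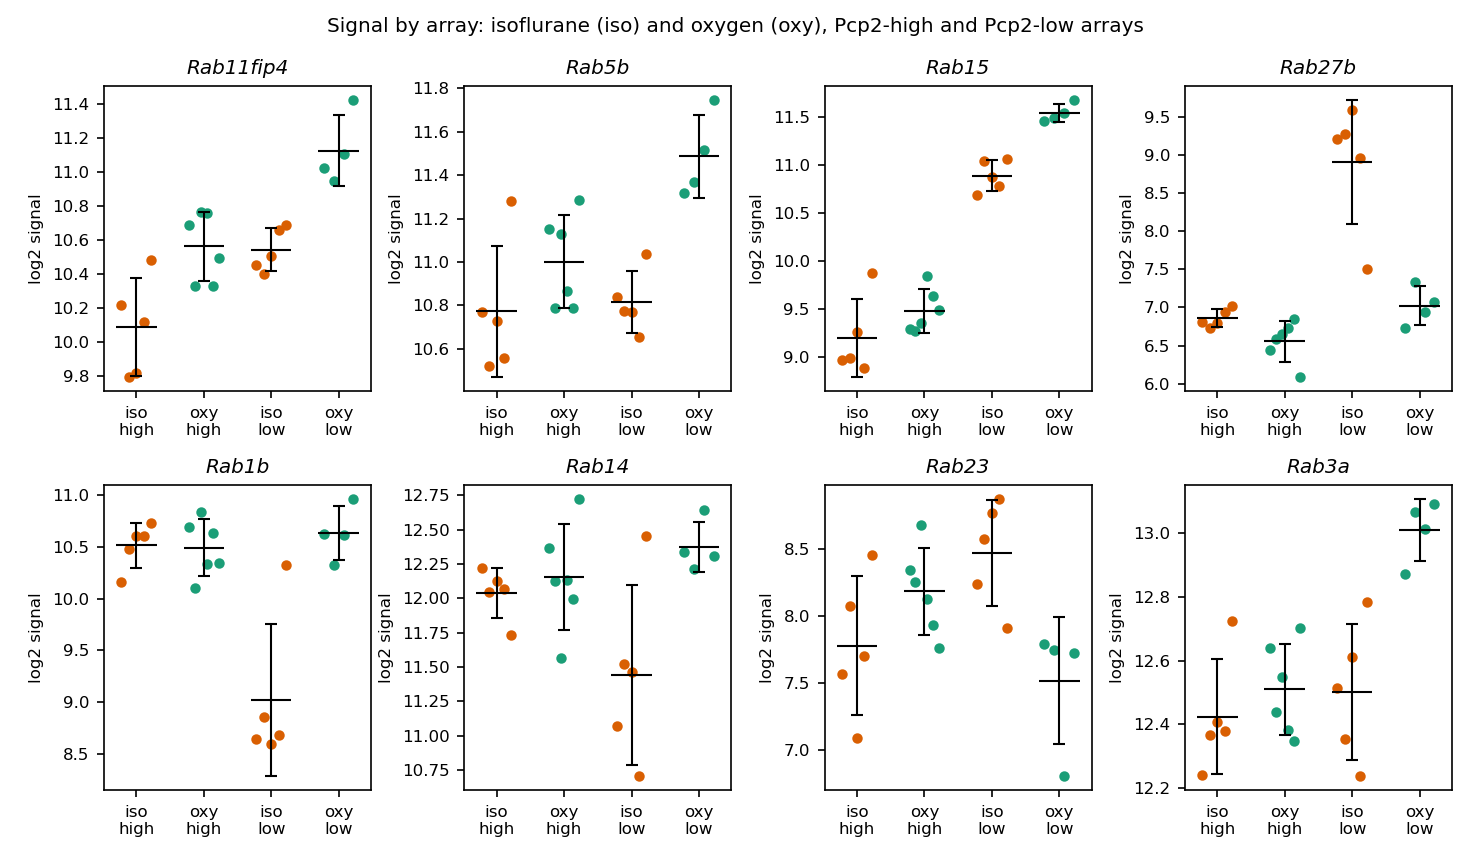
Log2 signal on each array for the Rab genes that passed in an isoflurane comparison and were named by rule, in 4 columns: isoflurane Pcp2-high (n = 5), oxygen Pcp2-high (n = 6), isoflurane Pcp2-low (n = 5) and oxygen Pcp2-low (n = 4). Points are arrays and bars give the mean and SD; on Pcp2-low arrays 4 isoflurane points of Rab1b lie between 8.59 and 8.85 with the fifth at 10.32, and 4 of Rab27b between 8.95 and 9.58 with the fifth at 7.50.

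Ordered by role, no subfamily had more than 1 gene past the threshold. Of the 8 exocytic Rabs 1 passed (Rab27b), and Rab3a, the synaptic vesicle Rab, changed by -0.28 (95% interval -0.46 to -0.09, adjusted p = 0.0551). Of the 12 tested ER and Golgi Rabs 0 passed, with 2 at an unadjusted p under 0.05: Rab34, which acts in lysosome positioning and cilium formation, at -0.35 (adjusted p = 0.0521), and Rab1b, which serves transport from the endoplasmic reticulum to the Golgi, at -0.71 (adjusted p = 0.0779). Of the 9 early endosome Rabs 1 passed (Rab5b), and Rab22a, which sorts cargo into recycling, changed by -0.35 (adjusted p = 0.0576).

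The 10 tested recycling and plasma membrane Rabs had 1 call (Rab15), and 8 of the 10 changes were negative, with a median of -0.15. Among all 10315 genes tested 5635 changes were negative, with a median of -0.02. Without isoflurane replicates 2, 4, 5 and 6 the median of these 10 was -0.05, with 8 negative. After Rab15, the next lowest p among them over all arrays was that of Rab14, which moves cargo between endosomes and the Golgi, at -0.48 (adjusted p = 0.106). Its probe sets disagreed in sign: 1 of the other 3 rose by 0.59 (adjusted p = 0.0397). Of the 5 late endosome and lysosome Rabs 0 passed, with 0 at an unadjusted p under 0.05, and Rab29 and Rab7b changed by -0.11 and -0.10. Of the 5 cilium, autophagy and other Rabs 0 passed, with 0 at an unadjusted p under 0.05. Among them Rab24, an atypical Rab of autophagy, changed by 0.10, and Rab40b by -0.15. For Rab31 the probe sets disagreed: the brightest changed by -0.12 (adjusted p = 0.213) and the second rose by 0.89 (adjusted p = 0.0433). Of the 8 partners that are no GTPase 1 passed (Rab11fip4), and its relative Rab11fip3, an effector of Rab11 in cell division, changed by -0.37 (adjusted p = 0.0895).

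Within Pcp2-high arrays, 0 of the 57 genes passed in limma's fit, with 3 at an unadjusted p under 0.05 and a lowest adjusted p of 0.331. Among all genes 0% passed there, with 1384 of 10315 at an unadjusted p under 0.05. The changes in this set were -0.48 for Rab11fip4, -0.50 for Rab22a, -0.28 for Rab15, -0.23 for Rab5b, 0.30 for Rab27b, -0.09 for Rab3a and 0.02 for Rab1b. Isoflurane replicate 9 carried weight here: without it, 4 genes passed, and 6.32% of all genes.

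Within Pcp2-low arrays, 9 of the 57 genes passed (15.8%), 2 higher and 7 lower after isoflurane. Among all genes 15.3% passed there, 6.22% higher and 9.04% lower, so this share too lay near the background. Rab27b rose by 1.88 (SE 0.356, adjusted p = 0.0101). Rab23, known in mouse as a negative regulator of Hedgehog signalling at the cilium, rose by 0.96 (SE 0.255, adjusted p = 0.0261). Its log2 signals there were 8.24, 8.58, 8.77, 8.88 and 7.91 after isoflurane, and 7.79, 7.74, 6.80 and 7.72 after oxygen. Each isoflurane array lay above every oxygen array, but oxygen replicate 3 was far below the rest, and the call was lost without it (change 0.72) as well as without isoflurane replicate 4, 5 or 6. The second probe set of Rab23 changed by -0.24 in this set and did not pass.

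Rab1b had the widest fall, 1.62 on the log2 scale (SE 0.319, adjusted p = 0.0109). Its log2 signals on Pcp2-low arrays were 8.64, 8.85, 8.59, 8.68 and 10.32 after isoflurane, and 10.63, 10.33, 10.61 and 10.97 after oxygen. The fifth isoflurane value, replicate 10, lay at the level of the oxygen arrays. Of the other 3 probe sets of Rab1b, 2 fell (by 1.01 and 1.16) and 1 changed by -0.12 without passing. Rab1b shares much of its sequence with Rab1a, which changed by 0.03 in this set, and probe sets of close paralogues may share signal.

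Rab14 fell by 0.93 (SE 0.278, adjusted p = 0.0392), with 11.07, 11.52, 11.46, 10.71 and 12.46 after isoflurane, and 12.34, 12.22, 12.64 and 12.31 after oxygen. Its call held in only 1 of the 9 fits that leave out a single Pcp2-low array, that without isoflurane replicate 10, and another of its probe sets rose by 0.68 (adjusted p = 0.047). Rab3a fell by 0.51 (SE 0.115, adjusted p = 0.0154), with 12.52, 12.35, 12.61, 12.24 and 12.78 after isoflurane, and 12.87, 13.07, 13.01 and 13.09 after oxygen. The groups of Rab3a did not overlap, and its second probe set fell by 0.95 (adjusted p = 0.0174).

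Rab5b, Rab15 and Rab11fip4 fell by 0.67, 0.65 and 0.58 in this set (adjusted p = 0.00793, 0.00709 and 0.0109). Rab11a, the central Rab of recycling endosomes, was chosen after its values were seen and fell by 0.30 (adjusted p = 0.0329). Its second probe set changed by -0.12 in this set and did not pass (adjusted p = 0.574). The second probe set of Rab40b rose by 0.60 in this set (adjusted p = 0.012), where its brightest changed by -0.09 (adjusted p = 0.667). With each array centred on its own median, the median change of all genes in this set was -0.26 in place of -0.05, and 20 Rab genes passed, 2 higher and 18 lower, as did 27.3% of all genes. Without isoflurane replicate 10 the count was 16, and 29.2% of all genes passed. With isoflurane replicates 2, 4, 5 and 6 left out, the single isoflurane array that remained was assumed to vary like the others, and 0 passed, with 3 at an unadjusted p under 0.05. Of all genes 0% passed there.

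**Figure D4:**
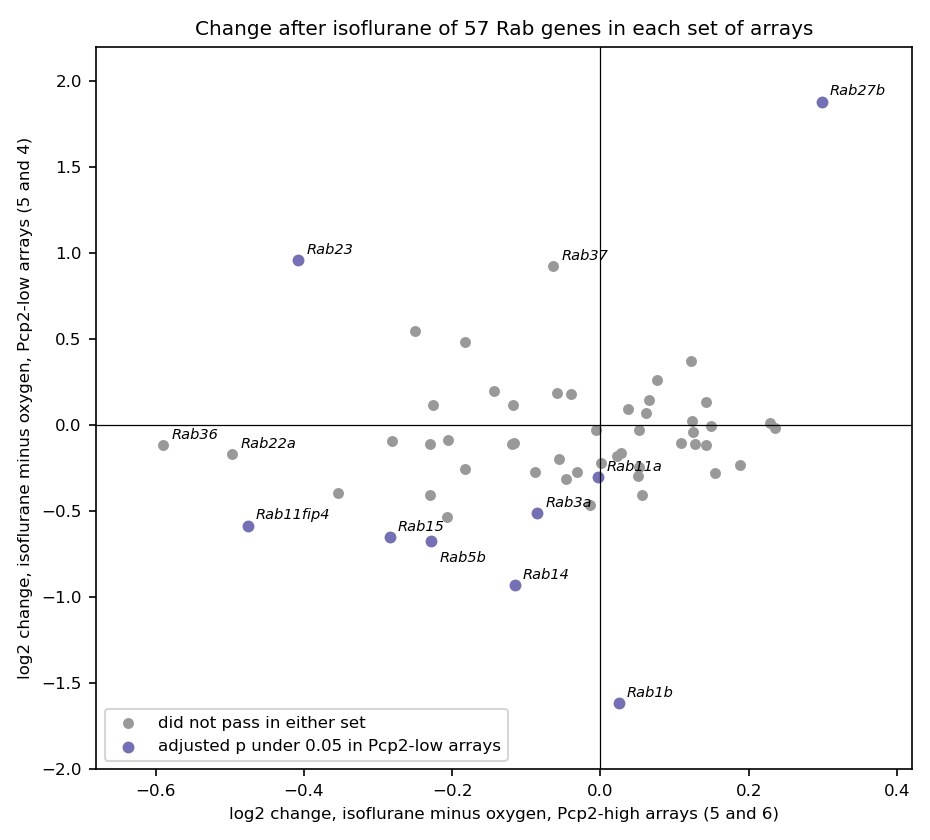
Log2 change after isoflurane (isoflurane minus oxygen) of the 57 Rab genes within Pcp2-high arrays (horizontal axis, 5 and 6 arrays) and within Pcp2-low arrays (vertical axis, 5 and 4 arrays), 1 point a gene. Purple points are the 9 genes that passed within Pcp2-low arrays; Rab1b, Rab23 and Rab27b lie far from a shared change, while Rab11fip4, Rab15 and Rab5b are negative on both axes.

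Whether isoflurane's effect differed between the sets was tested directly with an interaction term (Pcp2-high change minus Pcp2-low change). It passed for 3 of the 57 genes, with 7.1% among all genes. Rab1b had a difference of 1.64 (SE 0.352, adjusted p = 0.0094), being near 0 within Pcp2-high arrays and lower after isoflurane within Pcp2-low arrays. Rab27b had -1.58 (SE 0.389, adjusted p = 0.0159) and Rab23 -1.37 (SE 0.362, adjusted p = 0.0221). The second probe sets of Rab27b and Rab23 had -0.16 and -0.08 (adjusted p = 0.868 and 0.905), so these calls rest on the brightest. The other probe sets of Rab1b had 1.04, 1.16 and 0.20 (adjusted p = 0.0184, 0.014 and 0.575). The second probe set of Rab3a (0.85, adjusted p = 0.0394) and another of Rab5b (1.14, adjusted p = 0.039) passed, where their brightest did not. For the brightest probe set of Rab23 the sign of the change itself differed, -0.41 within Pcp2-high arrays and 0.96 within Pcp2-low arrays. Its second changed by -0.32 and -0.24. With arrays centred on their medians the median of all genes was 0.30 in place of 0.05, and 17 Rab genes passed, 15 positive and 2 negative, as did 20.2% of all genes. With the 3'/5' ratio as a covariate 0 passed (7 at an unadjusted p under 0.05), and with isoflurane replicates 2, 4, 5 and 6 left out 0 passed (1 at an unadjusted p under 0.05). Of all genes 0.194% and 0.0776% passed in these fits. The count was 11 without isoflurane replicate 10 and 6 without isoflurane replicate 9 or oxygen replicate 1, where 18.4%, 9.63% and 10.8% of all genes passed. Rab23 lost its call without oxygen replicate 3 (-1.13).

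The 4 isoflurane arrays that stood apart were also set beside the other 5 Pcp2-low arrays, as a description with no test. Their ranges did not overlap for 18 of the 57 Rab genes (31.6%), 5 higher and 13 lower, and for 25.3% of all genes tested. Rab27b was 8.95 to 9.58 on the 4 arrays, against 6.73 to 7.50 on the other 5, Rab1b 8.59 to 8.85 against 10.32 to 10.97, and Rab23 8.24 to 8.88 against 6.80 to 7.91. Rab11fip2, an effector of Rab11 whose mean lay below the signal threshold, was chosen after its values were seen: it was 9.00 to 9.31 on the 4 arrays, against 2.80 to 6.51. The mean 3'/5' ratio was higher on the same 4 arrays, through Actb, as given above. With it as a covariate within Pcp2-low arrays, 5 Rab genes and 4.38% of all genes passed. Of the 8 cerebellum markers 6 were lower on each of the 4 arrays than on any of the other 5 Pcp2-low arrays, with summed signals of 2676 to 3373, against 3902 to 10844 on those 5. The part of the ratio and of these markers in the Rab values was not tested.

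The other genes of the Rab cycle were taken from a list of 102, of which 76 were tested. Over all arrays with the block, 7 of the 76 (9.21%) passed, all 7 lower after isoflurane, against 7.73% of all genes (5.87% lower). The median change was -0.06, and 27 of the 76 changes were positive. By role, 4 of 22 activating proteins, 2 of 21 exchange factors, 1 of 28 effectors and 0 of 5 delivery genes passed. Evi5l, a GTPase activating protein, fell by 0.50 (adjusted p = 0.00873), and Sbf1, an exchange factor of the myotubularin family, fell by 0.79 (adjusted p = 0.0105). The activating proteins Tbc1d10b and Tbc1d22b fell by 0.47 and 0.44 (adjusted p = 0.0312 and 0.0222). Within Pcp2-low arrays 12 of the 76 passed (15.8%), 5 higher and 7 lower, against 15.3% of all genes. Within Pcp2-high arrays 0 passed (14 at an unadjusted p under 0.05), and over all arrays without the 4 isoflurane arrays that stood apart 0 passed (16 at an unadjusted p under 0.05). Of all 10315 genes, 1384 and 1757 had an unadjusted p under 0.05 in these fits.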

How the data were processed

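The values were the deposited series matrix of an Affymetrix rat array (31099 probe sets, 57 of them controls): a linear signal intensity per probe set. For these deposited values the notes on processing given by the submitters name MAS5 and Affymetrix Expression Console. Versions are not given in the sources used here. Per array, the deposited intensities had a trimmed mean of 500.1 to 500.2, so arrays are comparable only relative to their bulk signal. The number of arrays limits the precision.

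Intensities under 1 were raised to 1 (2079 values) and log2 was taken. Probe sets were named from GEO's platform annotation, with symbols updated through RefSeq: 20826 had 1 symbol, 436 several and 9780 none. The 18625 probe sets above the 40th percentile of mean log2 signal were fitted with limma 3.58.1 (R 4.3.3) with an intensity trend, and genes were counted by their brightest probe set. An earlier treatment of these data used no block. The block for the Pcp2 split was added because the sets differ more than the groups. Tables and figures were made in Python 3.11.15 with pandas 2.3.3 and matplotlib 3.10.9. The fits were tested on simulated data.

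The members and gene lists were chosen with earlier results of these data known. The genes named were Rab3a, the members past the threshold in each fit (at least the 5 lowest p over all arrays, up to 8 within a set or in the interaction), the 2 lowest p of each subfamily, up to 8 higher and 8 lower with separate ranges between sets, and the 4 lowest p of the Rab cycle list. Other genes appear as paralogues or are said to have been chosen after their values were seen. Alternatives covered quantile normalization, median centring, pseudocounts of 16 and 64, filters, limma settings, the 3'/5' ratio, blocks and left-out arrays.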

Additional observations from a re-analysis of the deposited data

Results flagged for a closer look

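Among 138 groups of named genes checked for a single array far from the others, 6 held one, where chance would flag about 1 in 20. Rab1b was highest on isoflurane replicate 10 (10.32) among the 5 isoflurane Pcp2-low arrays, and Rab22a lowest on the same array (8.31). Rab23 was lowest on oxygen replicate 3 (6.80), both among the 4 oxygen Pcp2-low arrays and among all 10 oxygen arrays. Isoflurane replicate 9 was highest for Rab40b among the 5 isoflurane Pcp2-high arrays (9.21) and for Rab11fip3 among all 10 isoflurane arrays (9.86). The isoflurane effect differed between Pcp2-high and Pcp2-low arrays by the interaction test for Rab1b (1.64), Rab27b (-1.58) and Rab23 (-1.37), each Pcp2-high minus Pcp2-low. The second probe sets of Rab27b and Rab23 did not pass this test.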

How the results depend on the processing

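Over all arrays, the 4 calls among Rab genes became 0 without isoflurane replicates 2, 4, 5 and 6, 0 with no block for the Pcp2 split, 0 with both, and 7 when every tested Rab probe set was counted (3 higher, 4 lower). Among all 18625 tested probe sets 7.37% passed. The replicate numbers did not pair the arrays. To check this, the signals of each array were taken as deviations from the mean of its group and Pcp2 set. Correlations of these deviations between arrays of the same number ran from -0.26 to 0.23, and 2 of 10 were above 0.1. Only 1 isoflurane array correlated best with its own number. With the replicate block the count was 0 (13 at an unadjusted p under 0.05), and 0.17% of all genes passed. Of all 10315 genes, 2181 had an unadjusted p under 0.05 in that fit. The interaction kept a count of 3 (5.26%) with that block, where 3.15% of all genes passed, and Rab23 was no longer past the threshold. No paired fit was made within a set, where too few numbers are shared. Leaving out single arrays gave 1 to 10 calls over all arrays, 0 to 4 within Pcp2-high, 6 to 16 within Pcp2-low, 2 to 11 in the interaction and 11 to 13 genes with separate ranges. Within Pcp2-low arrays the 9 calls became 20 with median centring, 5 with the 3'/5' ratio as covariate and 0 without the 4 arrays; in the interaction 3 became 17, 0 and 0 under the same settings, and 1 with a filter at the 60th percentile, which removes Rab27b and Rab23. The sign turned for Rab1b (0.0247) and Rab7b (0.0004) without isoflurane replicate 10 and the 4 arrays together. That fit keeps no isoflurane Pcp2-low array, so with the block its values are the changes within Pcp2-high arrays. The sign also turned for Rab40b with no block (0.0639), and for Rab14 within Pcp2-low arrays without the 4 arrays (0.0805). For Rab40b and Rab14 the cause was not tested. The other alternatives for single genes that kept all arrays gave 228 values of the same direction and side of the threshold, 16 that lost and 5 that gained a call. Those without the 4 arrays gave 28 values of the same direction and side, 22 that lost a call and 3 of the sign changes above. The fits without the block and the 4 arrays, and without isoflurane replicate 10 and the 4 arrays, were chosen after the data were seen. Median centring moved the median change of all genes from -0.05 to -0.26 within Pcp2-low arrays.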
